A study of Mus musculus with 6 samples.

Results

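Mertk, Axl, Gas6, Pros1, Timd4, Stab1 and Cd36 encode receptors that macrophages use to take up dying cells, or the soluble proteins that bridge the dying cell to a receptor. The 7 genes were chosen by name from that pathway, and all 7 were among the 14992 genes of the deposited count table. All 7 also passed the filter on low counts, which left 12806 genes to test. With the inhibitor, transcripts of the receptor Mertk fell most clearly. Those of the bridging ligand Pros1 fell by a smaller amount, with little spread within each group. Both calls were lost with some tests or with some libraries left out. The receptor Axl stood lower in each inhibitor library than in any vehicle library, as did Timd4, while Gas6, Stab1 and Cd36 overlapped between the groups.

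A dying cell moves phosphatidylserine to the outer face of its membrane. Mertk and Axl are receptor tyrosine kinases of the TAM family, which do not touch this lipid themselves: Gas6 and protein S, the product of Pros1, bind it through a domain that depends on vitamin K and hold the receptor with their other end. Timd4 and Stab1 encode receptors that bind phosphatidylserine directly, and Cd36 encodes a scavenger receptor that takes up oxidised lipids and works with other proteins in the uptake of dying cells. In bone marrow, resident macrophages clear aged neutrophils and the nuclei expelled by erythroblasts.

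Both groups were whole marrow of C57BL/6 recipients that had been irradiated and given marrow of Dnmt3a knockout mice. Vehicle libraries 1, 2 and 3 came from recipients given vehicle, and inhibitor libraries 1, 3 and 5 from recipients given a PI3K alpha and beta inhibitor at 75 mg/kg, in both groups for 21 days. Dnmt3a loss is shared by the groups, so the comparison is of the inhibitor within knockout marrow. The labels give no sex, age or strain of the donors and do not say how the knockout was made. The treatment label calls the Dnmt3a null marrow leukemic. The labels name no step that separates donor cells from marrow cells the recipients kept after irradiation. The labels do not tie each library to its own mouse, so p-values reflect only how these libraries vary, which may be technical.

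Total counts ran from 28198638 to 59384880 per library, and each of the 7 genes had between 209 and 26028 reads in a library. Counting noise was thus small beside the differences among vehicle libraries. The lowest counts were those of Mertk in inhibitors 1, 3 and 5, at 212, 209 and 210, where counting noise is a larger part of the spread. Neutrophil markers had the highest sum of the 9 marker lists in all 6 libraries. All 9 were present, with a summed level of 38635 to 62153 CPM (counts relative to the TMM-scaled library size) in vehicle and 99934 to 119135 CPM in inhibitor libraries. All 9 had log2 fold changes above 0. EdgeR called 2 of them higher, beside 81 of all 12806 tested genes, and DESeq2 called 8 higher, beside 4.90% of all genes. Vehicle 1 differed from vehicles 2 and 3. Its 12 macrophage markers summed to 5275 CPM, against 1681 and 1772 CPM in vehicles 2 and 3, and the fold changes of the 7 genes are given with and without it.

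The promoter stretches shown are those of Mertk and Pros1, the genes that passed the test, and that of Timd4, whose stretch held the most motif matches. Each is the sequence before the start of the gene on its coding strand, 5′ to 3′, from RefSeq on GRCm38.p6, cut where the annotated gene begins. Capitals mark matches to 3 short motifs searched on both strands: GAGGAA, the core bound by the myeloid factor PU.1, TGCTGA, the core of MAF sites, and AGGTCA, the core bound by many nuclear receptors. None of the 3 motifs overlapped another in these stretches.
Mertk, chr2:128698665-128698914, plus strand: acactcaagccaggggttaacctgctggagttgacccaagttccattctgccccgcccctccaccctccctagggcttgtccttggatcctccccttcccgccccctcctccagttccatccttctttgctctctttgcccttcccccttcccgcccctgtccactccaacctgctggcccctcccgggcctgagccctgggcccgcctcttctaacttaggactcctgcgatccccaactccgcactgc
Pros1, chr16:62854057-62854306, plus strand: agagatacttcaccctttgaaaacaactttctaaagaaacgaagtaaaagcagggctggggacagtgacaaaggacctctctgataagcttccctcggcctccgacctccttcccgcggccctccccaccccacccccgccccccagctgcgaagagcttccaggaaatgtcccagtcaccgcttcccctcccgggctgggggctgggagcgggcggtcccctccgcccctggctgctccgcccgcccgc
Timd4, chr11:46810549-46810785, plus strand: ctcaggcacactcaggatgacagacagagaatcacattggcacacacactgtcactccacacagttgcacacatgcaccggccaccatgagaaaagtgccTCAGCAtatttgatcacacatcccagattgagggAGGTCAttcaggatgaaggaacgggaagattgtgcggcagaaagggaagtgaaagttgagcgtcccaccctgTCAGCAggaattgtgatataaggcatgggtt

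All 7 genes matched the RefSeq promoter and gene tables. Within the windows of 250 bases, GAGGAA was in those of Axl and Stab1, TGCTGA in those of Timd4, Stab1 and Cd36, and AGGTCA in those of Timd4 and Cd36. The start used for a window can lie inside the annotated gene. That held for the whole window of Cd36 and for all but 59 bases of that of Axl. The matches of Axl and Cd36 are thus inside the annotated genes, not before them. Over 32851 RefSeq windows of that length, 23.3% held GAGGAA, 16.1% TGCTGA and 14% AGGTCA, so these letters are common. The windows of Mertk, Pros1 and Gas6 held none of the 3. The GC content of the windows was 63.6% for Mertk and 64.4% for Pros1, against 50% for Timd4, 43.2% for Cd36 and a median of 52.4% over all windows. These matches describe the letters only.

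Mertk (chromosome 2, 128698915 to 128803162, GRCm38) encodes the TAM receptor through which macrophages engulf apoptotic cells. It measured 87.5, 35.0 and 38.8 CPM across vehicles 1, 2 and 3, against 6.90, 7.78 and 5.95 CPM across inhibitors 1, 3 and 5. Every inhibitor library lay well below the lowest vehicle, and the inhibitor libraries were close together. The mean went from 53.7 ± 29.3 to 6.87 ± 0.916 CPM (SD, n = 3), a 7.82-fold lower fitted level (log2 fold change -2.97 ± 0.38, SE; edgeR adjusted p = 0.0258). Without vehicle 1, the highest library, the value was -2.43 ± 0.15 (edgeR adjusted p = 0.00132). The call was lost when vehicle 3 or inhibitor 1, 3 or 5 was left out (edgeR adjusted p = 0.0723, 0.125, 0.117 and 0.137). In each of those fits edgeR called 0 of all tested genes.

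Axl (chromosome 7, 25756500 to 25788924) encodes the TAM receptor that binds Gas6 most tightly. It measured 742, 190 and 246 CPM across vehicles 1, 2 and 3, against 38.4, 74.1 and 65.1 CPM across inhibitors 1, 3 and 5. No inhibitor library reached the lowest vehicle, but the vehicles themselves spanned 3.90-fold because of vehicle 1. The log2 fold change was -2.73 ± 0.55 (SE, n = 3) and did not pass the edgeR test (adjusted p = 0.0563). Without vehicle 1 it was smaller, at -1.88 ± 0.26, and passed (edgeR adjusted p = 0.0092).

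The third TAM receptor gene, Tyro3, was near the limit of use in whole marrow, at 0.51 to 0.89 CPM in the 6 libraries and with a log2 fold change of -0.14 ± 0.37 (SE). TAM receptor transcripts in this marrow were thus mainly those of Axl and Mertk. Per base of transcript, Axl exceeded Mertk in every library, by a ratio of RPKM (CPM per kilobase of gene length) of 3.81 to 5.93 in vehicle and 3.89 to 7.66 in inhibitor libraries. That ratio overlapped between the groups.

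Pros1 (chromosome 16, 62854307 to 62929346) encodes protein S, a ligand of Mertk and Tyro3 and a cofactor that restrains blood clotting. It measured 50.3, 40.1 and 49.0 CPM across vehicles 1, 2 and 3, against 28.4, 23.8 and 27.3 CPM across inhibitors 1, 3 and 5. Here vehicle 1 did not stand apart, and each group spanned at most 1.26-fold. The mean went from 46.5 ± 5.60 to 26.5 ± 2.39 CPM (SD, n = 3), a 1.75-fold lower fitted level (log2 fold change -0.81 ± 0.14, SE; edgeR adjusted p = 0.0434). Without vehicle 1 the value was -0.75 ± 0.14 (edgeR adjusted p = 0.0204). The call was lost when vehicle 2, vehicle 3 or inhibitor 1, 3 or 5 was left out (edgeR adjusted p = 0.0567, 0.108, 0.152, 0.192 and 0.151). Without vehicle 3 or any inhibitor library edgeR called 0 of all tested genes.

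Gas6 (chromosome 8, 13465374 to 13494535) encodes the ligand that activates Axl and the other TAM receptors. It measured 109, 32.2 and 37.6 CPM across vehicles 1, 2 and 3, against 18.9, 28.8 and 42.1 CPM across inhibitors 1, 3 and 5. Inhibitor 5 lay above vehicles 2 and 3, so the groups overlapped. Its fitted log2 fold change was -0.99 ± 0.51 (SE, n = 3; edgeR adjusted p = 0.297) and was -0.22 ± 0.29 without vehicle 1 (edgeR adjusted p = 0.665). The library preparation does not mark strand, and 34 exonic bases of Gas6 are shared with Tmem255b on the other strand. Mfge8 and Edil3 encode bridging proteins that link phosphatidylserine to integrins. Mfge8 had a log2 fold change of -0.13 ± 0.15 (SE) and means of 11.6 and 10.6 CPM. Edil3, at 1.21 to 9.55 CPM in vehicle and 0.0651 to 0.595 CPM in inhibitor libraries, had one of -3.54 ± 0.95 (edgeR adjusted p = 0.0921), and -2.36 without vehicle 1.

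Timd4 (chromosome 11, 46810786 to 46844333) encodes a phosphatidylserine receptor of resident macrophages that tethers dying cells. It measured 214, 37.5 and 50.4 CPM across vehicles 1, 2 and 3, against 7.81, 20.2 and 14.6 CPM across inhibitors 1, 3 and 5. The groups did not overlap, and inhibitor 3 and vehicle 2 came nearest to each other. The log2 fold change was -2.82 ± 0.72 (SE, n = 3) and did not pass (edgeR adjusted p = 0.0836). Without vehicle 1 it was -1.63 ± 0.34 and passed (edgeR adjusted p = 0.0289).

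Stab1 (chromosome 14, 31139017 to 31168651) encodes stabilin 1, a large scavenger receptor of macrophages and sinusoidal endothelium. It measured 198, 29.5 and 56.8 CPM across vehicles 1, 2 and 3, against 15.1, 36.8 and 29.2 CPM across inhibitors 1, 3 and 5. Inhibitor 3 was above vehicle 2, and the vehicles spanned 6.71-fold. Its fitted log2 fold change was -1.81 ± 0.69 (SE, n = 3; edgeR adjusted p = 0.189), and -0.68 ± 0.38 without vehicle 1 (edgeR adjusted p = 0.296). Stab1 shares 112 exonic bases with Nt5dc2 on the other strand. Its paralog Stab2, an endothelial receptor of the same kind, had a log2 fold change of -1.37 ± 0.49 (edgeR adjusted p = 0.169), and -0.93 without vehicle 1.

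Cd36 (chromosome 5, 17781690 to 17888959) encodes a scavenger receptor found on macrophages, platelets, erythroid precursors, fat cells and small vessel endothelium. It measured 279, 40.3 and 65.7 CPM across vehicles 1, 2 and 3, against 33.1, 62.4 and 86.0 CPM across inhibitors 1, 3 and 5. Inhibitor 5 exceeded both vehicles 2 and 3. For Cd36 the log2 fold change was -1.08 ± 0.71 (SE, n = 3; edgeR adjusted p = 0.411) and turned to 0.19 ± 0.37 without vehicle 1 (edgeR adjusted p = 0.786), so no direction is given for this gene.

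**Figure D1:**
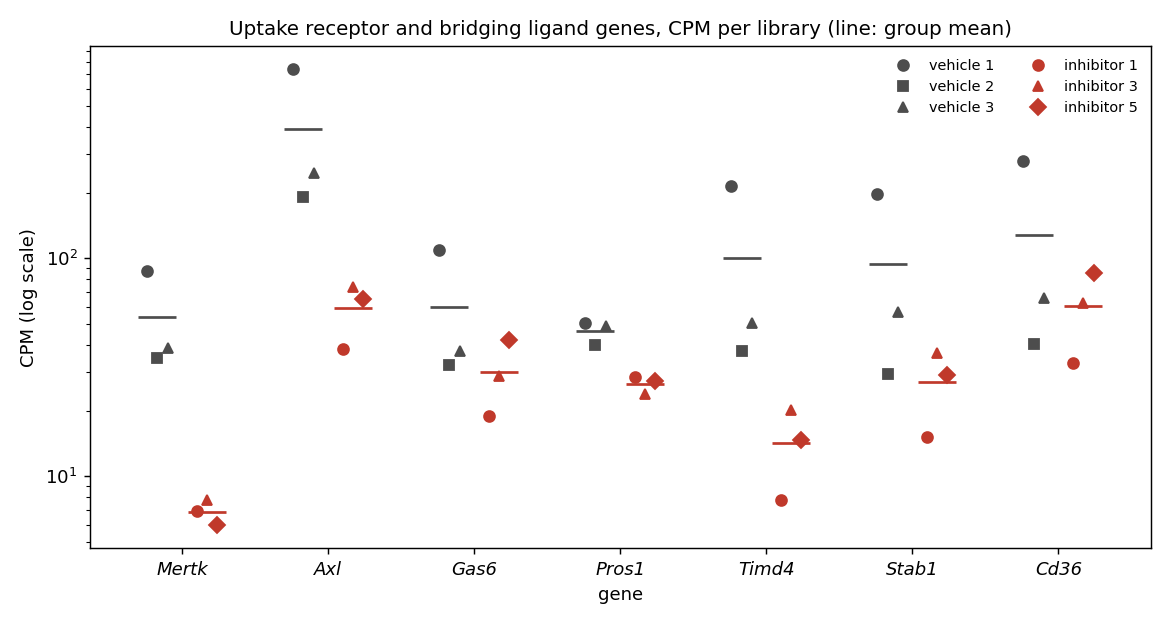
CPM of each gene (log axis) in vehicle (grey) and inhibitor (red) libraries, with 1 symbol per library and a line at the group mean. Mertk, Axl, Pros1 and Timd4 do not overlap between groups, vehicle 1 is the highest library for all 7 genes, and Gas6, Stab1 and Cd36 overlap.

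Of the 7 genes, 2 passed the edgeR test at an adjusted p under 0.05, Mertk and Pros1, both lower. Among all tested genes 1.83% passed in either direction and 1.19% were lower. In 4 of the 7, every inhibitor library lay below every vehicle library, which was true of 16.2% of all tested genes. Before adjustment, 5 of the 7 were lower at p under 0.05, as were 11.9% of all genes, with 9.68% higher. DESeq2 called 4 of the 7 lower, Mertk, Axl, Pros1 and Timd4, beside 7.23% of all genes lower and 4.90% higher. Without vehicle 1 edgeR called the same 4 lower, beside 4.89% of the genes tested there called lower and 3.10% higher. Other settings lowered the count of 2: limma voom called 0, and edgeR called 1 without vehicle 2 and 0 without vehicle 3 or any inhibitor library, where 4 or 5 were lower before adjustment at p under 0.05, as were 4 by voom. Over all genes, edgeR called 0 in either direction without vehicle 3 or any inhibitor library. It called 84 lower and 7 higher without vehicle 2, and voom called 55 lower and 30 higher. With 7 genes chosen when earlier results were known, these shares describe the genes and test nothing about the pathway. The median log2 fold change of the 7 was -1.81, and -0.75 without vehicle 1, where the median of all genes was 0.000931 and 0.0242.

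The authors' deposited table, made with a test that the sources used here do not name, lists log2 fold changes of -2.96 for Mertk, -2.71 for Axl, -2.80 for Timd4 and -0.81 for Pros1. Its adjusted p-values in the deposited table are 2.18e-13, 1.96e-06, 0.0112 and 0.000146 in the same order. In the authors' deposited table Stab1, Gas6 and Cd36 have adjusted p-values of 0.182, 0.195 and 0.534.

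**Figure D2:**
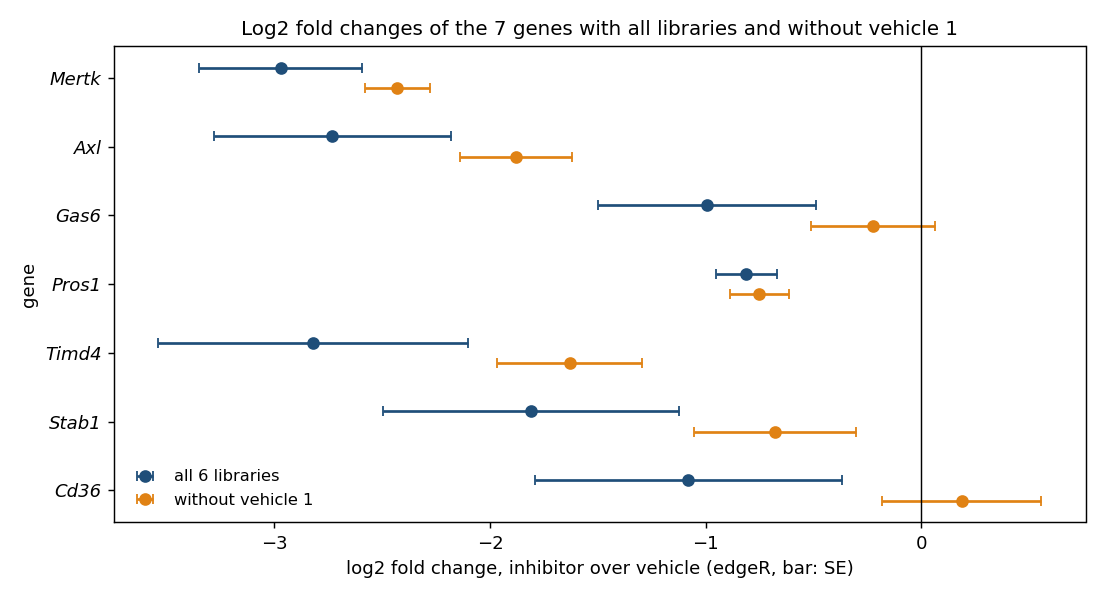
Log2 fold change of each gene (x axis, inhibitor over vehicle, edgeR) with all 6 libraries (blue) and without vehicle 1 (orange), with bars of 1 SE. Pros1 moves least when vehicle 1 is left out, from -0.81 to -0.75, while Stab1 goes from -1.81 to -0.68 and Cd36 crosses 0.

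Per kilobase of gene length, the order of the vehicle means was Axl at 77.2 ± 59.7 RPKM (SD, n = 3), Timd4 at 46.3 ± 45.3, Cd36 at 32.7 ± 33.3, Gas6 at 23.0 ± 16.5, Mertk at 15.1 ± 8.23, Pros1 at 14.2 ± 1.71 and Stab1 at 11.8 ± 11.3. Each neighbouring pair in this order differed by less than the larger of its SDs. Without vehicle 1 the vehicle means were 42.9 RPKM for Axl, 20.2 for Timd4, 13.6 for Pros1, 13.5 for both Cd36 and Gas6, 10.4 for Mertk and 5.39 for Stab1, so the places of Cd36, Gas6 and Pros1 in the order rest on that library. Axl was the highest of the 7 within every single vehicle library, from 37.4 to 146 RPKM. In inhibitor libraries the order was Cd36 at 15.4 ± 6.75 RPKM, Axl at 11.6 ± 3.66, Gas6 at 11.5 ± 4.48, Pros1 at 8.10 ± 0.730, Timd4 at 6.54 ± 2.86, Stab1 at 3.38 ± 1.38 and Mertk at 1.93 ± 0.258. Mertk was last there, although in inhibitor 1 it stood at 1.94 RPKM beside 1.89 for Stab1. In vehicles 2 and 3 Mertk lay between Pros1 and Stab1, at 9.84 and 10.9 RPKM. The last 3 of that order, Timd4, Stab1 and Mertk, were each apart from the next by more than the larger SD, and the neighbours above them were not.

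The ratios of Axl to Gas6 and of Mertk to Pros1 within a library differed between the groups. Axl exceeded its ligand Gas6 per kilobase 3.47-fold, 3.01-fold and 3.33-fold in vehicles 1, 2 and 3. In inhibitors 1, 3 and 5 the Axl to Gas6 ratio was 1.03, 1.31 and 0.790. The vehicle ratios were close together, although both genes were far higher in vehicle 1 than in vehicles 2 and 3, and no inhibitor ratio came near them. The ratio of Mertk to its ligand Pros1 was 1.60, 0.803 and 0.729 across vehicles 1, 2 and 3, against 0.223, 0.300 and 0.201 across inhibitors 1, 3 and 5, again without overlap. The ratio of the ligands, Gas6 to Pros1, was 0.967 to 2.73 in vehicle and 0.841 to 1.95 in inhibitor libraries and overlapped. These pairs were chosen after the values were seen and are given with no test. The log2 fold changes were -2.73 for Axl and -2.97 for Mertk, against -0.99 for Gas6 and -0.81 for Pros1. Any gene that fell as far would also stand lower against a gene that changed less. The lower ratios are thus not particular to pairs of receptor and ligand. In bulk marrow the cells that each transcript came from cannot be told apart.

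**Figure D3:**
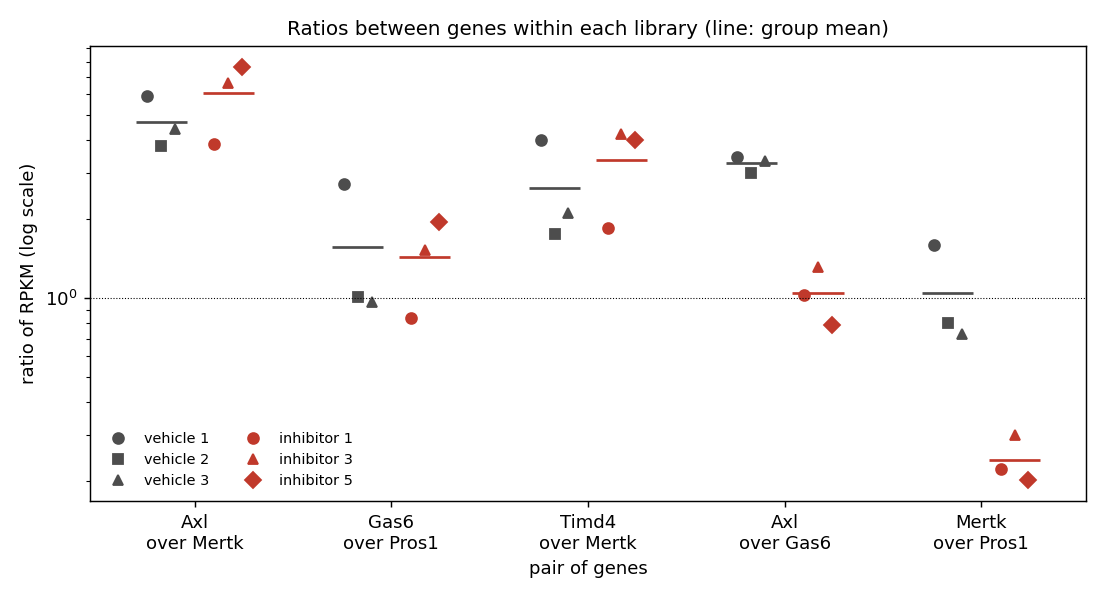
Ratio of RPKM between pairs of the genes (log axis) within each library, vehicle in grey and inhibitor in red, with a line at the group mean. The ratios of Axl to Gas6 and of Mertk to Pros1 are lower in all 3 inhibitor libraries, and the other 3 ratios overlap.

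The genes were then read beside markers of the cells that carry them. Over all genes, edgeR called 1.19% lower and DESeq2 7.23%. Before adjustment 11.9% of all genes were lower and 9.68% higher at p under 0.05 by edgeR. Of 12 macrophage markers, all had log2 fold changes below 0 and 6 passed the edgeR test as lower, with a median of -2.09, and -1.57 without vehicle 1. Their summed level was 1681 to 5275 CPM in vehicle and 536 to 704 CPM in inhibitor libraries, and none was at 0 in either group. In bulk marrow, fewer macrophages and less of these transcripts per macrophage cannot be told apart. The list was written with earlier results of these data known, so it is no independent evidence. Their part in the values of the 7 genes was not tested.

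Against the mean log2(CPM + 1) of these markers in the same library, Mertk was at -1.53, -1.61 and -1.57 across vehicles 1, 2 and 3, against -1.74, -2.02 and -2.16 across inhibitors 1, 3 and 5. The difference of the Mertk means was -0.40. It was -0.476 with a pseudocount of 0.1 CPM and shrank to -0.148 with a pseudocount of 5 CPM. Mertk thus fell at least as far as the marker mean, by a margin that depends on the pseudocount. The marker mean itself went from 7.22 to 4.94. Axl and Timd4 stayed near it, with means of 1.13 ± 0.374 and 0.915 ± 0.293 (SD, n = 3) for Axl and -0.990 ± 0.659 and -1.11 ± 0.430 for Timd4, and both overlapped between groups. Without vehicle 1 the differences of the means were -0.0154 for Axl and 0.253 for Timd4. Both ligands stood higher against the markers in every inhibitor library. The marker mean changed by -2.28, while the median log2 fold change of all genes was 0.000931. A gene that changed little would thus also stand higher, so this is not particular to the genes named here. Pros1 went from -2.32, -1.42 and -1.24 to 0.157, -0.523 and -0.132, and Gas6 from -1.22, -1.73 and -1.61 to -0.404, -0.259 and 0.476. Cd36 also stood higher, at 0.370 to 1.49 against -1.41 to 0.127, and Stab1 overlapped. With a reference of 9 markers that leaves out Cd5l, Vsig4 and Spic, a choice made after seeing the data, the difference of the means went from -0.40 to -0.84 for Mertk, from -0.22 to -0.66 for Axl, from -0.12 to -0.56 for Timd4, from 1.46 to 1.02 for Gas6 and from 1.49 to 1.06 for Pros1.

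**Figure D4:**
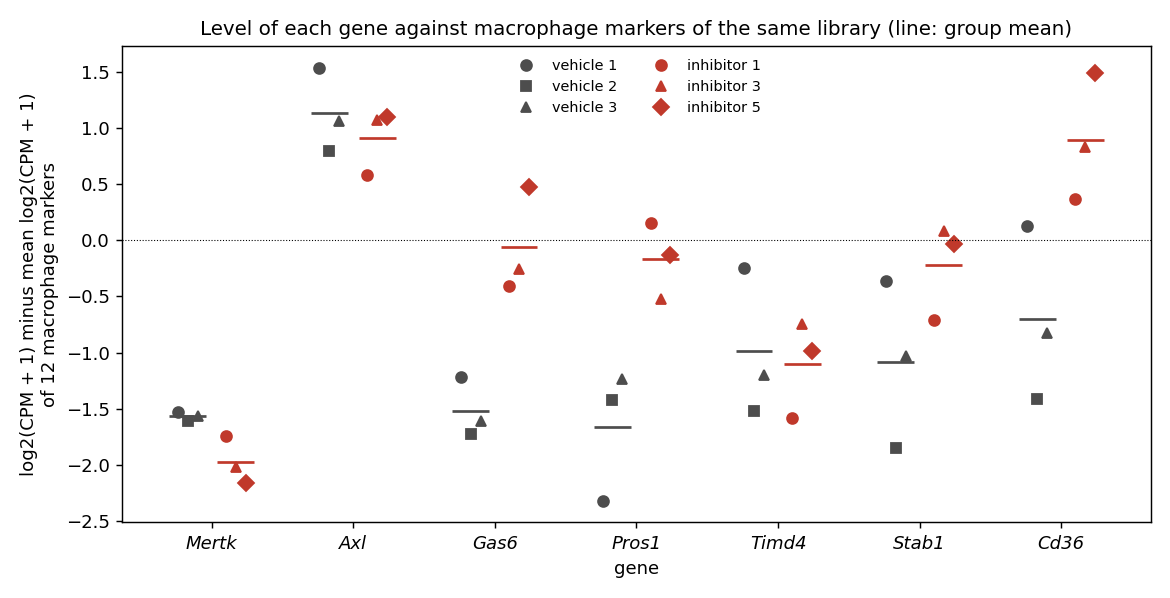
Log2(CPM + 1) of each gene minus the mean of 12 macrophage markers in the same library (y axis), vehicle in grey and inhibitor in red, with a line at the group mean. Gas6, Pros1 and Cd36 sit higher in all 3 inhibitor libraries, Mertk sits lower in all 3, and Axl, Timd4 and Stab1 overlap.

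Of 8 monocyte markers, 7 had log2 fold changes below 0 and 2 passed the edgeR test as lower, with a median of -1.20, and -0.92 without vehicle 1. Those that passed were Cx3cr1 and Fcgr1. Before adjustment 4 were lower at p under 0.05, and DESeq2 called 3 lower. Ly6c2 had a log2 fold change of 0.40 that did not pass (edgeR adjusted p = 0.404). The 8 markers summed to 3107 to 3854 CPM in vehicle and 2142 to 2876 CPM in inhibitor libraries. The 7 dendritic cell markers summed to 132 to 139 CPM in vehicle and 111 to 131 CPM in inhibitor libraries, and edgeR called 0 of them, with 3 lower and 1 higher before adjustment at p under 0.05 and 1 lower by DESeq2. The part of monocytes and dendritic cells in the values of the 7 genes was not tested.

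Other cells that carry some of these genes also differed between libraries. By summed level, vehicle 1 was the highest library for endothelial, stromal, erythroid and adipocyte markers, and the highest vehicle for megakaryocyte markers. No marker in the table was at 0 throughout a group. The 9 endothelial markers, of which some share Stab1 and Cd36, summed to 75.6 to 152 CPM in vehicle and 69.8 to 86.5 CPM in inhibitor libraries. The 10 stromal and bone markers, of cells that express Gas6 and Axl, summed to 265 to 691 and 182 to 341 CPM. The 9 megakaryocyte markers, of cells that carry Cd36 and Pros1, summed to 56.7 to 236 and 37.8 to 260 CPM, and 8 erythroid markers to 1340 to 4503 and 829 to 1776 CPM. In each of these 4 lists edgeR called 0 genes. Before adjustment 2 endothelial and 4 stromal markers were lower at p under 0.05, and DESeq2 called 2 lower in each of those lists, with 0 megakaryocyte and 0 erythroid markers by either measure. Of 6 adipocyte markers 4 were in the table, at 67.2 to 206 CPM summed in vehicle and 35.9 to 81.7 CPM in inhibitor libraries. EdgeR called 0 of the 3 tested, with 1 higher and 1 lower before adjustment at p under 0.05, and likewise by DESeq2. Lpl, the largest part of the sum at 183 CPM in vehicle 1, had a log2 fold change of -1.63. Adipoq went the other way, with one of 1.29, and 1.79 without vehicle 1. Among the inhibitor libraries, the endothelial, stromal, megakaryocyte, erythroid and adipocyte sums were all highest in inhibitor 5, as were Gas6 and Cd36. The part of these cells in the values of Gas6, Stab1 and Cd36 was not tested.

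The genes most like each of the 7 over the 6 libraries were found among 9477 genes that averaged 5 CPM or more, by the root mean square difference of log2(CPM + 1) after each gene's mean was subtracted. A difference of 0 would be the same profile. Nearest to Mertk were Clec4f (0.161), Adgre4 (0.173) and Msr1 (0.188). Nearest to Axl were the complement genes C1qb (0.0661) and C1qa (0.088) and then Sema6d (0.109), and C1qa (0.139) and C1qb (0.151) were also nearest to Timd4, followed by Ephx1 (0.165). Nearest to Pros1 were Iqsec2 (0.0419), Lrrc8b (0.0633) and Zmat3 (0.079). Gas6 was nearest to Ypel4 (0.1), Cttn (0.117) and the basement membrane collagen gene Col4a1 (0.123), and Stab1 to Colec12 (0.235), Ctsf (0.264) and H2-Aa (0.277). Cd36 was nearest to Slc2a4 (0.153), Mpp2 (0.205) and Slc4a1, the anion exchanger of red cells (0.240). Among the 7 themselves the closest pair was Axl and Timd4 (0.203) and the farthest Mertk and Cd36 (1.17), with Gas6 and Cd36 at 0.321 and Mertk and Axl at 0.36. The profiles share libraries and depth, and these differences are a description.

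Beyond the 7, genes of 7 lists along the same process were read, from receptors to what follows engulfment. Of 86 tested genes, 0 were called higher and 4 lower by edgeR, beside 1.19% of all genes called lower. Before adjustment 8 had p under 0.05 with values above 0 and 25 with values below 0, beside 9.68% and 11.9% of all genes. The count above 0 was thus near the share of all genes. DESeq2 called 4.90% of all genes higher and 7.23% lower, and these shares stand beside the counts of each list below. Among 19 other uptake receptors 3 fell, with 1 higher and 9 lower before adjustment at p under 0.05 and 6 lower by DESeq2. Of the 4 called genes over all lists, 0 remained called when vehicle 3 or any inhibitor library was left out. In those fits edgeR called 0 of all tested genes. Msr1, the class A scavenger receptor, fell from 449, 134 and 156 CPM across vehicles 1, 2 and 3 to 27.2, 36.4 and 33.0 CPM across inhibitors 1, 3 and 5 (log2 fold change -2.94 ± 0.48, SE; edgeR adjusted p = 0.0403), and by 2.18 on the log2 scale without vehicle 1. Itgb5, a beta chain of integrins that bind Mfge8-coated cells, fell by 2.44 ± 0.27 on the log2 scale (edgeR adjusted p = 0.024). Itgb3, the other such beta chain in the list, had a log2 fold change of 0.67 ± 0.26 that did not pass (edgeR adjusted p = 0.188). Lrp1, an endocytic receptor that recognises calreticulin on dying cells, fell by 1.94 ± 0.33 (edgeR adjusted p = 0.0428). Marco, a scavenger receptor named for its size after the values were seen, measured 988, 56.5 and 59.2 CPM across the vehicles and 7.64, 5.66 and 4.45 CPM across the inhibitors (log2 fold change -5.96 ± 1.30, SE; edgeR adjusted p = 0.0627), and -3.29 without vehicle 1. The median of these receptors was -0.67, and -0.35 without vehicle 1.

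Among 10 other bridging and opsonin genes edgeR called 0, with 4 lower at an unadjusted p under 0.05 and 4 lower by DESeq2. Their median was -1.22, and -0.0916 without vehicle 1. The complement genes C1qb and C1qc, whose products coat dying cells, were at -2.70 ± 0.59 and -2.94 ± 0.63 on the log2 scale (SE, with edgeR adjusted p = 0.0627 and 0.0619), and at -1.75 and -1.94 without vehicle 1, where both passed (edgeR adjusted p = 0.0111 and 0.012). Among 10 nuclear receptor and lipid efflux genes 1 fell, Nr1h3, which encodes the sterol sensor LXR alpha that is active after engulfment (log2 fold change -2.08 ± 0.23, SE; edgeR adjusted p = 0.024). Nr1h3 measured 16.8, 10.7 and 12.2 CPM across vehicles 1, 2 and 3, against 3.48, 3.01 and 2.86 CPM across inhibitors 1, 3 and 5. DESeq2 called 6 of these 10 lower, and their median was -0.78 with all libraries and -0.79 without vehicle 1.

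Of 15 engulfment signalling genes edgeR called 0, with 4 lower at an unadjusted p under 0.05 and 3 lower by DESeq2, and the median was -0.12. Elmo2, which helps activate Rac, and Trio were at -0.62 ± 0.14 and -0.69 ± 0.17 on the log2 scale (SE, with edgeR adjusted p = 0.0695 and 0.0772). Without vehicle 1 both passed as lower, at -0.66 and -0.79 (edgeR adjusted p = 0.0365 and 0.0234). Of 13 genes of LC3-associated phagocytosis edgeR called 0, with 4 above and 1 below at p under 0.05 before adjustment and 3 higher by DESeq2, and the median was 0.23. Atg12 and Map1lc3b, of the conjugation of LC3 to membranes, had values of 0.62 ± 0.13 and 0.60 ± 0.15 (edgeR adjusted p = 0.0615 and 0.081). Without vehicle 1 both passed as higher, at 0.52 and 0.69 (edgeR adjusted p = 0.0303 and 0.0321). These genes are widely expressed, also in the neutrophils that fill the marrow.

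Of 7 genes for TAM feedback, receptor shedding and the vitamin K cycle that matures Gas6 and protein S, edgeR called 0, with 1 lower at an unadjusted p under 0.05 and 1 lower by DESeq2. That gene was Socs3, a brake on cytokine signalling that TAM receptors induce, at -1.92 ± 0.60 (SE; edgeR adjusted p = 0.127) and -0.97 without vehicle 1. Vkorc1l1, which regenerates vitamin K, had a value of 0.28 ± 0.12. Of 12 genes for phosphatidylserine exposure and restraint of uptake edgeR called 0, with 2 higher at an unadjusted p under 0.05 and 1 higher by DESeq2, and the median was 0.0607. The smallest p-values in that list were those of Plscr1 and Atp11b, at 0.61 ± 0.20 and 0.54 ± 0.23 (edgeR adjusted p = 0.134 and 0.225). Without vehicle 1 Plscr1 was at 0.85 and passed (edgeR adjusted p = 0.00965), while Atp11b was at 0.37 and did not (edgeR adjusted p = 0.270).

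**Figure D5:**
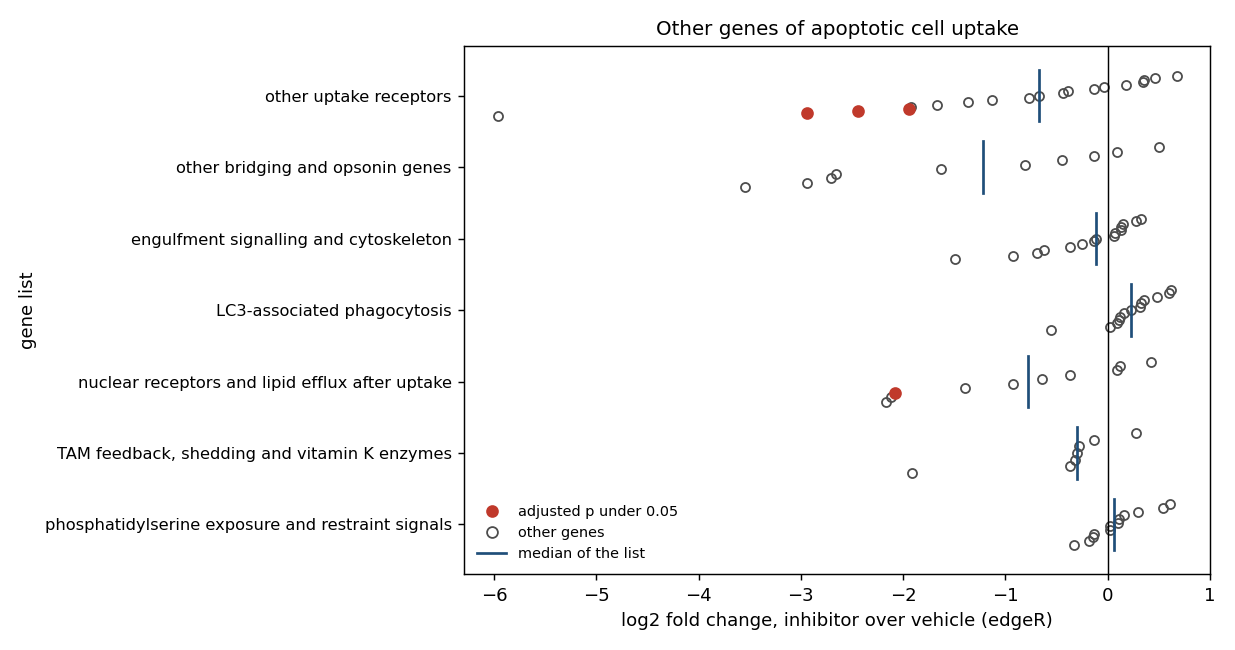
Log2 fold change (x axis, edgeR, inhibitor over vehicle) of each tested gene in 7 lists of the uptake process, filled red where the adjusted p is under 0.05, with a line at the median of each list. The 4 called genes are Msr1, Itgb5 and Lrp1 among the receptors and Nr1h3 among the nuclear receptors.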

How the data were processed

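Messenger RNA was read in 6 whole marrow samples, 3 per group, after SMART-Seq cDNA synthesis and Nextera XT library preparation, per the labels' protocols. The authors deposited raw read counts per gene, made with STAR on mm10 and featureCounts, per the submitters' processing notes (the sources used here name no versions or annotation). The deposited table also holds, per the file headers, gene length in bases and the authors' own log2 fold change and adjusted p-value.

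Here counts were filtered with filterByExpr, scaled by TMM and tested with edgeR 4.0.16 (quasi-likelihood F test, group only, Benjamini-Hochberg adjusted p under 0.05 over all tested genes) in R 4.3.3. The SE is the size of the log2 fold change over the square root of F. RPKM was computed from TMM-scaled CPM and the deposited length. Alternatives used limma 3.58.1 and DESeq2 1.42.0, other scalings and filters, leaving out single libraries, and a block for the replicate number. The steps were tested on simulated data.

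The 7 genes and all lists were chosen with earlier results of these data known. Named beyond the 7 are, per list, the called genes (3 at most where over 4 were called), or the 2 with the smallest p where none was called, and the 3 genes most like each of the 7. Tyro3, Mfge8 and Stab2, relatives of the 7, and Marco, Edil3, Itgb3 and Ly6c2 were named outside this rule after their values were seen. Sequences and gene positions are from RefSeq on GRCm38.p6, and shared exons from GENCODE M21.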

Additional observations from a re-analysis of the deposited data

How the results depend on the processing

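Other scalings and filters left the calls of the 7 genes as they were. The count of genes called lower among the 7 was 2 and became 4 by DESeq2, 4 by limma voom with quality weights, 4 at an adjusted p under 0.10, 0 by limma voom and 1 with the replicate number as a block. Leaving out single libraries gave 0 to 4: 4 without vehicle 1, 1 without vehicle 2 and 0 without vehicle 3 or any inhibitor library, where 4 or 5 were lower at an unadjusted p under 0.05. Log2 fold changes that crossed the threshold were, by DESeq2, -2.72 for Axl and -2.81 for Timd4, by voom with weights -1.77 and -1.46, and at 0.10 the unchanged -2.73 and -2.82. Limma voom ended the calls of Mertk (-2.85, adjusted p = 0.0501) and Pros1 (-0.804, adjusted p = 0.0561). With 1 library left out the values ran from -3.20 to -2.43 for Mertk, -3.06 to -1.88 for Axl, -0.907 to -0.732 for Pros1, -3.22 to -1.63 for Timd4 and -1.51 to 0.188 for Cd36, which was also above 0 by voom with weights (0.122). Over the alternatives the adjusted p ran from 3.3e-13 to 0.137 for Mertk and from 8.91e-05 to 0.249 for Pros1.

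Over all genes, 81 higher and 153 lower became 628 and 926 by DESeq2, 30 and 55 by voom, 1374 and 1483 by voom with weights and 422 and 634 at 0.10. When a library was left out these counts ran from 0 to 401 and 0 to 633. Both were 0 without vehicle 3 or any inhibitor library. The 4 lower pathway genes became 20 by DESeq2, 2 by voom, 25 by voom with weights and 17 at 0.10, and 0 to 16 with a library left out. The 0 higher ones became 4 by DESeq2, 8 by voom with weights, 3 at 0.10 and 0 to 3 with a library left out. With the replicate block, edgeR called 0 genes higher, 7 lower and 1 lower pathway gene, and Pros1 did not pass (-0.934, adjusted p = 0.249). The numbers are shared only as labels: same-numbered libraries had deviations correlated at -0.430 and -0.0455. The cause of these shifts was not tested. The difference of Mertk from the macrophage markers was -0.148 with a pseudocount of 5 CPM.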
